A study of Mus musculus with 12 samples.

Results

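The genes described here are the hair keratins and the keratin-associated proteins (Krtap genes) of mouse dorsal skin. They were taken as every row of the deposited count table whose symbol begins with Krtap or is one of Krt25 to Krt28, Krt31 to Krt40, Krt71 to Krt75 and Krt81 to Krt86, and 63 of the 14533 listed genes met this rule. They comprised 8 keratins of the inner root sheath (IRS), 14 keratins of the hair shaft, the companion layer keratin Krt75 and 40 Krtap genes. Epidermis scraped from frozen, non-lesional dorsal skin of untreated C57BL/6 mice was sequenced with an mRNA library kit, with 1 library for each of 12 mice. The 6 WT mice carried floxed Pparg without Cre, and the 6 Pparg-/-epi mice carried floxed Pparg with Cre under the keratin 14 promoter, which is active in basal keratinocytes of the epidermis and the follicle. Scraping went down to the pink subepidermal vascular bed, so the samples held follicles and superficial dermis, and cells other than keratinocytes kept an intact Pparg. The WT group held 3 male and 3 female mice and the Pparg-/-epi group 2 male and 4 female mice, all 8 to 13 weeks old by the labels.

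The hair follicle alternates between growth (anagen), regression (catagen) and rest (telogen). During anagen the matrix of the bulb divides, and its daughter cells form the hair shaft at the centre, the IRS around it and the companion layer between the IRS and the outer root sheath. IRS cells make the type I keratins Krt25 to Krt28 and the type II keratins Krt71 to Krt74, which pair into filaments together with trichohyalin. Shaft cells make the hair keratins in an order that runs from the matrix upward, with Krt35 and Krt85 early and Krt31, Krt34 and Krt86 later in the cortex, while Krt32 and Krt82 belong to the shaft cuticle. Krtap proteins form the matrix in which the shaft filaments are embedded, and they are made late, as the cortex and cuticle harden. Resting follicles hold a finished club hair and little of this RNA.

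Total counts ran from 10120840 to 18851255 per library, so that 1 count was worth 0.0520 to 0.107 CPM (CPM, counts scaled to the library total and to edgeR's TMM factors). The 6 WT libraries held 59, 269, 5, 15, 58 and 13 reads of Pparg, and the 6 Pparg-/-epi libraries 100, 107, 89, 16, 32 and 25. The floxed exons are only a part of the gene and the counts cover all of it, so these values do not check the genotype. The column names of 4 of the 6 WT libraries share a number that no Pparg-/-epi column has. WT 2 and Pparg-/-epi 10 share another. Among Pparg-/-epi columns, 7 and 8 have a number in common, 8 and 9 have a different one, and 11 and 12 have yet another. What these numbers stand for is not given in the sources used here. Every fit treated the libraries as independent, and apart from the fit of male mice none left out both Pparg-/-epi 7 and 8. In scrapings, fewer hair-forming cells and less RNA per cell cannot be told apart.

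Of the 63 genes, 29 lay on chromosome 11, 20 on chromosome 16, 11 on chromosome 15, 2 on chromosome 10 and 1 on chromosome 7 (mm10). Of the Krtap genes, 17 were in the chromosome 11 cluster and 20 in the chromosome 16 cluster. RefSeq lists 79 symbols under the same rule, and 17 of these, Krt40 among them, had no row in the table used here. Every listed gene had more than 0.5 CPM in at least 6 mice. Among the 63 genes, 46 were above 0.5 CPM in all 6 Pparg-/-epi libraries and 54 were above it in 4 or fewer WT libraries, so most owed their place in the table mainly to the Pparg-/-epi mice, and counts of direction over these genes are descriptions only.

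Neighbouring genes of the same family were chosen to show promoter sequence, because 1 of them, Krtap3-2, had a level unlike that of the others, and Krt71 and Krt32 stand for a keratin that varied widely and one that did not. Each stretch runs 5′ to 3′ from 120 bases before to 30 bases after the RefSeq start (GRCm38.p6), and all lie on the minus strand. Krtap3-1 is chr11:99566601-99566750, Krtap3-2 is chr11:99556824-99556973, Krtap3-3 is chr11:99550834-99550983, the IRS keratin Krt71 is chr15:101743068-101743217 and the cuticle keratin Krt32 is chr11:100088240-100088389. Capitals mark TATAAA, the core promoter box, CTTTGAA, the site that LEF and TCF factors recognise, and TTTATNG, the site of HOX13-type homeodomain factors, each searched on both strands.
Krtap3-1: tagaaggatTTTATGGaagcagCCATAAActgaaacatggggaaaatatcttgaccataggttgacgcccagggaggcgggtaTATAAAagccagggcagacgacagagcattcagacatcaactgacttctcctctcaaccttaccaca
Krtap3-2: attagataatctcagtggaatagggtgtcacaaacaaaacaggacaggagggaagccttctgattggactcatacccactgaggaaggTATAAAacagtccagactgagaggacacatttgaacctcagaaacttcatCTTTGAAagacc
Krtap3-3: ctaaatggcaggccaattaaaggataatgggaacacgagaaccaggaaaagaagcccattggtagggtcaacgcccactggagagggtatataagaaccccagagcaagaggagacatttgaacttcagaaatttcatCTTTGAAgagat
Krt71: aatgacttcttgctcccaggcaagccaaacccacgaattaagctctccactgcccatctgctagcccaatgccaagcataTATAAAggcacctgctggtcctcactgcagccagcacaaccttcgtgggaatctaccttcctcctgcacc
Krt32: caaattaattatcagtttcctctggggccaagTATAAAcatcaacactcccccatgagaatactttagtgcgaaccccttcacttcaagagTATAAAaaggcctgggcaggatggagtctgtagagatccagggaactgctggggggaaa

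RefSeq promoters of 300 bases were found for 52 of the 63 genes. TATAAA stood in 78.8% of them and in 14.2% of all 27025 promoters, and a TATAAA on the sense strand 20 to 45 bases before the start stood in 57.7% against 2.36%. CTTTGAA was in 28.8% against 5.27%, and TTTATNG in 28.8% against 11.3%, where a TTTATNG read on the opposite strand can share bases with TATAAA. All 7 IRS keratin promoters held TATAAA, as did 62.5% of the shaft keratin promoters and 80.6% of the Krtap promoters. Krtap3-2 carried TATAAA 32 bases before its start and Krtap3-1 carried it 37 bases before, whereas Krtap3-3 had no exact match. The stretch of Krtap3-3 holds the near match tatataag, and near matches were not counted. Krtap3-2 and Krtap3-3 shared a CTTTGAA 18 bases after the start. Compared position by position without gaps, they had the same letter at 47.3% of the 150 positions, and Krtap3-1 matched Krtap3-2 at 26.7%. A stretch shifted by some bases counts as unlike in this comparison, and no gapped alignment was made. A match is a string of letters and not a measured binding site.

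**Figure D1:**
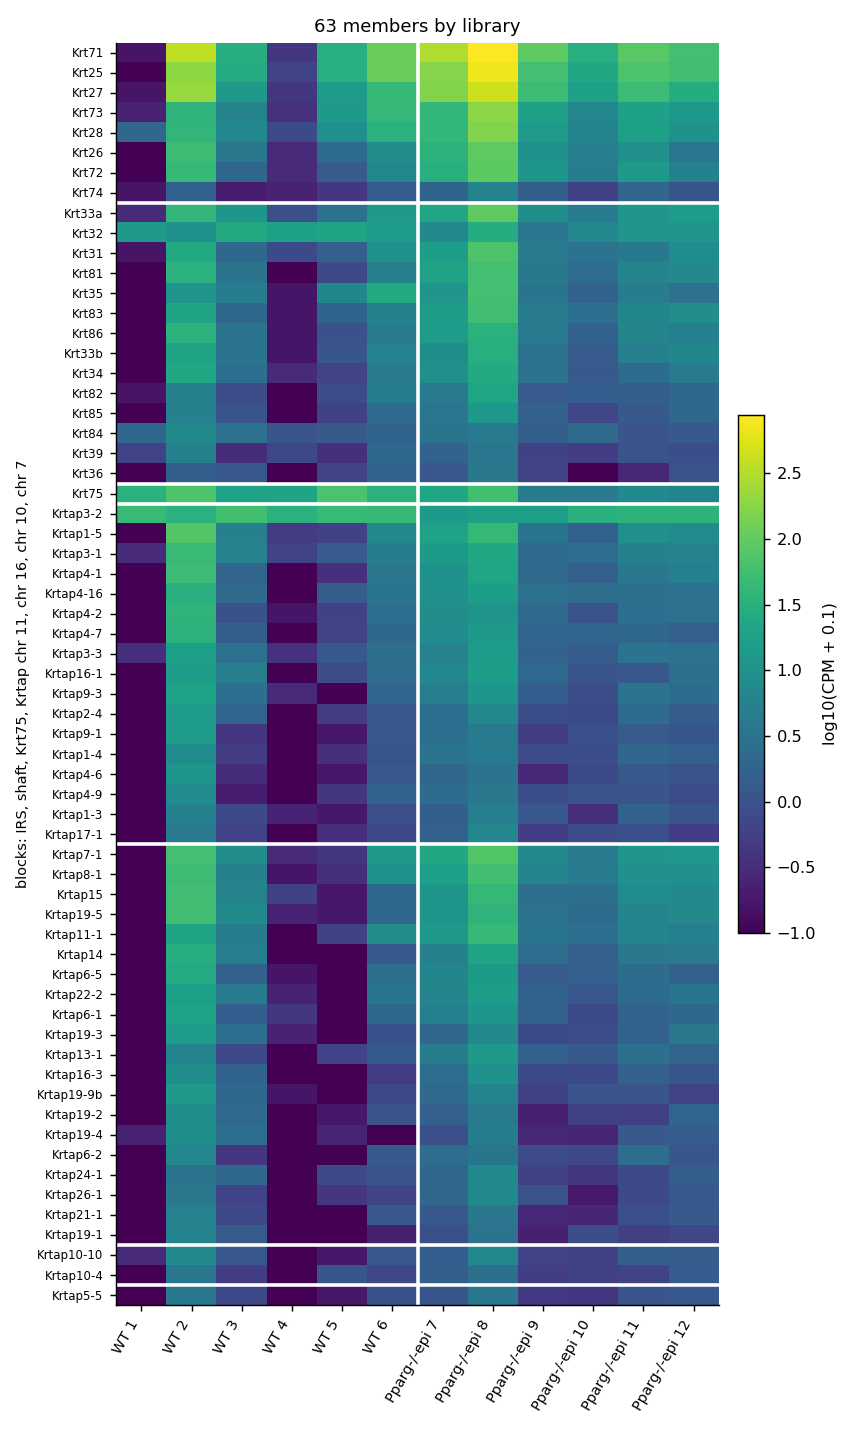
Level of each of the 63 genes (rows) in each of the 12 libraries (columns), coloured by log10(CPM + 0.1). Blocks from top to bottom are IRS keratins, shaft keratins, Krt75 and the Krtap genes of chromosomes 11, 16, 10 and 7. WT 2 and Pparg-/-epi 8 are brightest and WT 1 and WT 4 darkest, while Krtap3-2, Krt32 and Krt75 stay bright in WT 1 and WT 4. Krt84 is dim there, at 2.05 and 1.01 CPM.

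The libraries differed far more from each other than the genotypes did. The summed level of the 8 IRS keratins was 2.24, 949, 86.1, 2.69, 101 and 358 CPM in WT replicates 1 to 6, and 772, 2568, 259, 93.3, 266 and 175 CPM in Pparg-/-epi replicates 7 to 12. WT 1 and WT 4 were nearly empty of IRS keratin, whereas no Pparg-/-epi library was below 93.3 CPM, and the highest library of all exceeded the lowest 1148-fold (42354 against 35 counts). Group medians were 93.5 CPM (WT) and 263 CPM (Pparg-/-epi), and the groups overlapped.

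The 14 shaft keratins together ran from 16.6 to 241 CPM in WT mice and from 29.3 to 495 CPM in Pparg-/-epi mice. Much of the level in the low libraries came from Krt32 and Krt84. Without both of these, a choice made after their values were seen, the shaft keratins summed to 0.831, 224, 35.9, 2.55, 17.5 and 83.2 CPM in WT and to 126, 464, 37.8, 20.4, 48.7 and 63.4 CPM in Pparg-/-epi mice, and again WT 1 and WT 4 were the lowest and Pparg-/-epi 8 and WT 2 the highest.

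The 40 Krtap genes behaved similarly once Krtap3-2, their most abundant member, was set apart. The other 39 summed to 0.767, 824, 93.1, 3.23, 11.7 and 92.9 CPM in WT mice and to 227, 601, 60.4, 46.8, 111 and 113 CPM in Pparg-/-epi mice. Here WT 2 was the highest library and Pparg-/-epi 8 the next. The 13 genes of families 6, 7, 8, 19, 21 and 22, which encode high glycine-tyrosine proteins of the cortex, summed to 292 CPM for WT 2, to 241 CPM for Pparg-/-epi 8, to 0.128 CPM for WT 1 and to 0.869 CPM for WT 5.

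**Figure D2:**
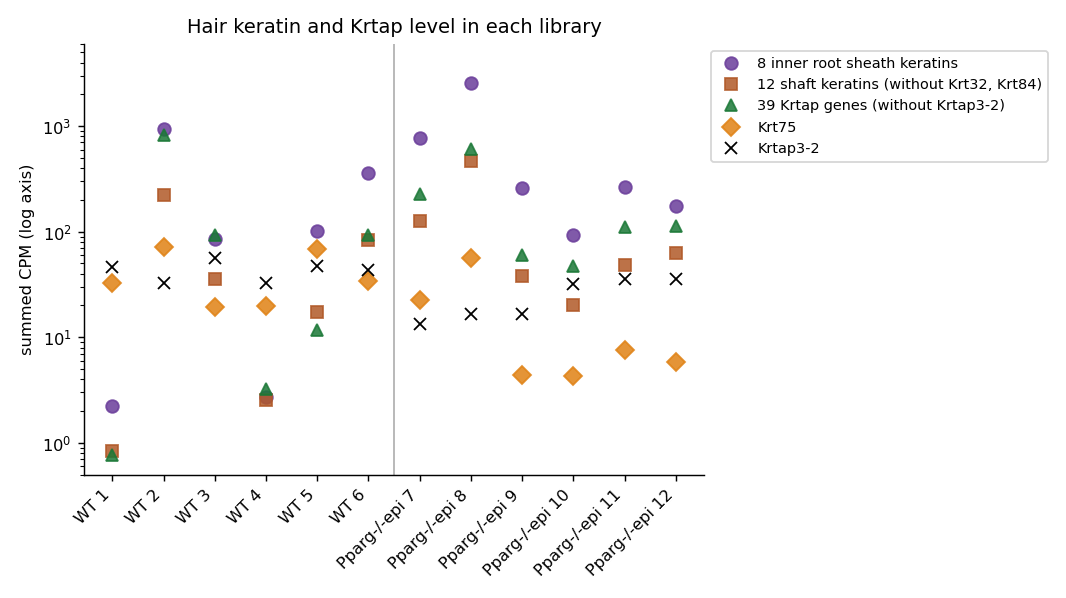
Summed CPM (log axis) of the IRS keratins, the shaft keratins without Krt32 and Krt84, the Krtap genes without Krtap3-2, and the single genes Krt75 and Krtap3-2, in each of the 12 libraries. The sums span from 0.767 to 2568 CPM, while Krtap3-2 stays between 13.3 and 56.5 CPM.

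The same few libraries set the extremes of nearly every gene. The highest level was in WT 2 for 34 genes and in Pparg-/-epi 8 for 28, which makes 62 of 63, where 22.5% of all genes had their highest level in either library. By class, all 8 IRS keratins and 11 of the 14 shaft keratins peaked in Pparg-/-epi 8, whereas 30 of the 40 Krtap genes peaked in WT 2 and 9 in Pparg-/-epi 8. The lowest level was in WT 1 for 54 genes and in WT 4 for 4, where either was the lowest library for 12.6% of all genes. No count at all was seen for 46 genes in WT 1, 28 in WT 4, 11 in WT 5 (all Krtap), 1 in WT 6 and 1 in Pparg-/-epi 10. The upper limit that a count of 0 allows, 3 counts, amounted to 0.156 to 0.320 CPM and covers counting error only.

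Age differed within each extreme. Label age was 9 weeks for WT 2 and 13 weeks for Pparg-/-epi 8 at the high end, and 8 weeks for WT 1 and 13 weeks for WT 4 at the low end. WT 2, Pparg-/-epi 7 and Pparg-/-epi 8 had the highest RNA integrity numbers (RIN) of all, 8.6, 8.6 and 8.5, and they were also the 3 highest libraries for the IRS sum. RIN was 7.4 in WT 1 and 7.1 in WT 4, above the 6.2 of WT 6, whose IRS sum was 358 CPM. The part of RIN in the levels was not tested beyond the fit with RIN as a covariate given below.

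By genotype, 0 of the 63 genes passed the test, in which altered genes needed a log2 fold change beyond 0.6 in either direction together with an adjusted p below 0.05 (edgeR quasi-likelihood test, Benjamini-Hochberg over all genes). Over all genes 10.3% were altered. An unadjusted p under 0.05 was reached by 2 of the 63, Krt74 and Krtap3-2, where 29.5% of all genes reached it. The likelihood ratio test of edgeR and DESeq2 each called 1 of them, Krtap3-2, where they called 11.8% and 12.4% of all genes. In none of the 63 did the 2 groups separate without overlap, which 7.9% of all genes did. The median log2 fold change was 0.32 over the 63 genes and -0.01 over all genes.

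The spread between mice was wider for these genes than for most. The median standard error of the log2 fold change was 1.12 for the 63 genes and 0.174 for all genes, and the biological coefficient of variation, the relative spread between mice that edgeR estimates, had a median of 1.38 against 0.235. It was in the top 5% of all genes for 60 of the 63. The standard error was larger than the fold change itself in 45 of them.

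The IRS keratins are the structural filaments of the sheath that moulds the growing hair. All 8 had a positive log2 fold change, from 1.23 to 1.74 with a median of 1.47, and none passed the test (adjusted p from 0.146 to 0.537). Krt71, the type II keratin needed for a straight coat, had the highest level per length, 76.0 CPM per kb on average over the libraries. Its level was 0.0639, 367, 28.7, 0.336, 29.2 and 109 CPM in WT mice and 297, 881, 94.1, 29.7, 85.6 and 59.1 CPM in Pparg-/-epi mice. All 6 Pparg-/-epi libraries lay above 4 of the 6 WT libraries, WT 2 lay above 5 of the Pparg-/-epi libraries, and the log2 fold change of 1.43 had a standard error of 1.27 (adjusted p = 0.502).

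The type I keratin Krt25 ran from 0 to 190 CPM (median 28.1) in WT and from 23.0 to 715 CPM (median 63.6) in Pparg-/-epi mice. Krt27, also on chromosome 11, ran from 0.0639 to 221 CPM (median 13.8) in WT and from 18.3 to 443 CPM (median 50.5) in Pparg-/-epi mice. Krt73, a keratin of the IRS cuticle, ran from 0.128 to 42.5 CPM (median 9.66) in WT and from 6.49 to 183 CPM (median 18.1) in Pparg-/-epi mice. For each of the 3 the Pparg-/-epi median was above the WT median and the ranges overlapped. Krt74, the least abundant IRS keratin at 0.832 CPM per kb, had the smallest p of the class: it ran from 0.0639 to 1.59 CPM in WT and from 0.499 to 5.76 CPM in Pparg-/-epi mice (log2 fold change 1.74, standard error 0.76, adjusted p = 0.146).

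The other 3 IRS keratins had the same form. Krt72, which pairs in the IRS cuticle, ran from 0 to 43.7 CPM (median 1.64) in WT and from 4.66 to 88.6 CPM (median 12.6) in Pparg-/-epi mice (log2 fold change 1.50, standard error 1.17, adjusted p = 0.436). Krt26 ran from 0 to 50.9 CPM in WT and from 3.44 to 92.5 CPM in Pparg-/-epi mice, and Krt28 from 0.672 to 39.1 CPM and from 5.91 to 159 CPM. Each was highest in Pparg-/-epi 8 and overlapped between the groups.

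The 2 keratin types of the IRS kept a narrow range of proportions. Per kilobase, the type I keratins Krt25 to Krt28 had 137 to 176 CPM for each 100 CPM of the type II keratins Krt71 to Krt74 in the 10 libraries other than WT 1 and WT 4, whose IRS sums rested on 35 and 40 counts. In WT 1 85.7% of the IRS keratin counts were from Krt28, against 4.12% to 9.48% in those 10 libraries. Krt28 had 30 counts there and no other IRS keratin more than 2.

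Shaft keratins were more divided. Of the 14, 11 had a log2 fold change above 0 and 3 below, the median was 0.82, and 0 passed the quasi-likelihood test, the likelihood ratio test or DESeq2, with 0 at an unadjusted p under 0.05. Krt31, a type I keratin of the mid cortex, ran from 0.0639 to 24.9 CPM in WT mice and from 3.08 to 69.1 CPM in Pparg-/-epi mice. Krt35, an early type I keratin of the matrix and lower cortex, was at 0, 11.0, 4.48, 0.0672, 6.32 and 25.4 CPM in WT mice and at 11.3, 59.3, 3.27, 1.66, 4.43 and 2.92 CPM in Pparg-/-epi mice. The WT median of Krt35, 5.40 CPM, was above the Pparg-/-epi median of 3.85 CPM, and that of Krt31, 1.76 CPM, was below the Pparg-/-epi median of 6.27 CPM.

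Krt33a, a type I cortex keratin and the most abundant shaft keratin per length, ran from 0.192 to 40.5 CPM in WT and from 3.99 to 93.1 CPM in Pparg-/-epi mice. Its close relatives Krt33b and Krt34 reached 29.3 and 26.0 CPM in Pparg-/-epi 8 and 19.9 and 22.2 CPM in WT mice, and the sparser Krt36 and Krt39 stayed at 5.41 CPM or less in every mouse. Krt82, the type II cuticle keratin, had a median of 0.729 CPM over WT and of 1.71 CPM over Pparg-/-epi mice (log2 fold change 1.47, standard error 1.05, adjusted p = 0.386). Groups overlapped for all of these.

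Among the type II shaft keratins, the row named Krt83 ran from 0 to 20.2 CPM (median 1.88) in WT and from 2.66 to 54.1 CPM (median 7.46) in Pparg-/-epi mice, the largest log2 fold change of the class (1.63, standard error 1.09, adjusted p = 0.354). This row lies at chr15:101431490-101438804, and 100% of its exon bases lie in exons that the reference annotation gives to Krt87. The reference also lists a separate gene named Krt83, so the row may not be the gene it is named for. The row named Krt85 spans chr15:101431014-101491303, and 98.8% of its exon bases lie in exons that the reference gives to Krt81, Krt83 and Krt87. Krt81 and Krt86 have 30.7% and 33.5% of their 75-base stretches in common with other hair keratin genes. WT 2 and Pparg-/-epi 8 held 33.2 and 58.0 CPM of Krt81 and 34.3 and 33.3 CPM of Krt86. Which of these chromosome 15 hair keratins a read came from is therefore uncertain.

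The proportion of early to later shaft keratin differed between libraries. For each 100 counts of Krt31, Krt35 had 221, 421 and 257 counts in WT 3, WT 5 and WT 6, 44.1 in WT 2, and 35.4 to 117 in the 6 Pparg-/-epi libraries. WT 1 and WT 4 held at most 10 counts of either gene and give no usable ratio. This pair of genes was chosen after the values were seen. For each 100 CPM of type II, type I shaft keratins had 295, 338 and 338 CPM in WT 3, WT 5 and WT 6. They had 150 CPM in WT 2 and 141 to 185 CPM in the 6 Pparg-/-epi libraries, all per kilobase and without Krt32 and Krt84. RIN was 6.1, 5.9 and 6.2 in WT 3, WT 5 and WT 6, and 8.6 in WT 2. Pparg-/-epi 11, at RIN 5.7, had the 117 counts of Krt35 and 153 CPM of type I. The column names of WT 3, WT 5 and WT 6 share the number that no Pparg-/-epi column has. The part of RIN, of this number and of genotype in these proportions was not tested.

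**Figure D3:**
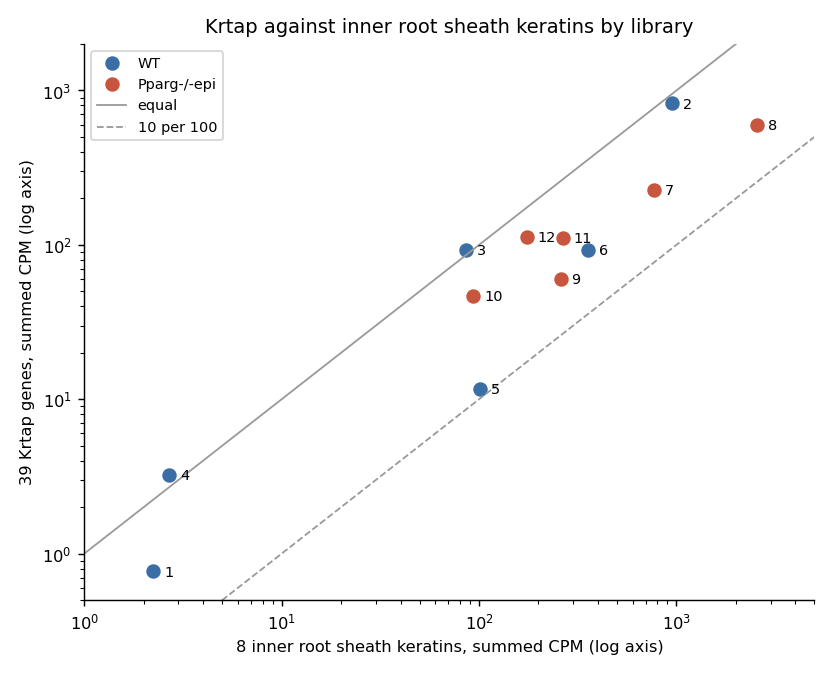
Summed CPM of 39 Krtap genes against that of the 8 IRS keratins in each library, on log axes and marked with the replicate number, where grey lines mark equal sums and 10 Krtap CPM for each 100 IRS CPM. WT 2 and WT 3 lie near the line of equality, WT 5 lies near the lower line, and the 6 Pparg-/-epi libraries lie between.

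The proportion of Krtap RNA to IRS RNA varied more. Without Krtap3-2, the Krtap genes had 86.8, 108, 11.6 and 25.9 CPM for each 100 CPM of IRS keratin in WT 2, WT 3, WT 5 and WT 6. In Pparg-/-epi replicates 7 to 12 the values were 29.4, 23.4, 23.3, 50.2, 41.7 and 64.4. WT 5 had 1277 IRS counts but 148 counts over 39 Krtap genes, 11 of which were at 0, while WT 3, with fewer IRS counts (808), had 874 Krtap counts. The WT libraries thus took both the highest and the lowest values, and the Pparg-/-epi libraries lay within the WT range.

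The Krtap genes had a median log2 fold change of 0.03, with 21 above 0 and 19 below. Krtap7-1, a high glycine-tyrosine gene on chromosome 16 and the most abundant there, was at 0, 58.5, 8.42, 0.202, 0.316 and 13.1 CPM in WT mice and at 22.3, 75.2, 6.96, 4.08, 11.3 and 12.8 CPM in Pparg-/-epi mice (log2 fold change 0.71, standard error 1.18, adjusted p = 0.742). Krtap19-5, of the same cluster, ran from 0 to 55.2 CPM (median 1.11) in WT and from 2.41 to 37.2 CPM (median 6.69) in Pparg-/-epi mice. Krtap3-1, a high-sulfur gene on chromosome 11, ran from 0.192 to 45.4 CPM (median 2.90) in WT and from 2.24 to 22.6 CPM (median 5.41) in Pparg-/-epi mice. In each, WT 2 and Pparg-/-epi 8 were the highest libraries of their groups, and the groups overlapped. Krtap1-5, Krtap8-1 and Krtap15 reached 77.0, 50.2 and 54.0 CPM in WT 2 and 43.1, 55.5 and 42.7 CPM in Pparg-/-epi 8, and all 3 were at 0 in WT 1. The genes outside the 2 large clusters, Krtap10-4 and Krtap10-10 on chromosome 10 and Krtap5-5 on chromosome 7, stayed at 7.27 CPM or less.

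Among Krtap genes with a positive fold change, the lowest p were those of Krtap13-1 (log2 fold change 1.55, standard error 1.00, adjusted p = 0.334), Krtap26-1, Krtap11-1, Krtap17-1 and Krtap24-1, all highest in Pparg-/-epi 8. Apart from Krtap3-2, the negative ones with the lowest p were Krtap4-6 (-0.75, standard error 1.20, adjusted p = 0.732), Krtap9-1, Krtap19-4 and Krtap19-2, all highest in WT 2. Medians and means pulled apart here. The Pparg-/-epi median exceeded the WT median in 39 of the 40 Krtap genes and in 57 of all 63 genes, while fold changes fitted to the means split almost evenly for the Krtap genes. The chromosome 11 genes without Krtap3-2 had a median log2 fold change of -0.11 and the chromosome 16 genes 0.18.

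**Figure D4:**
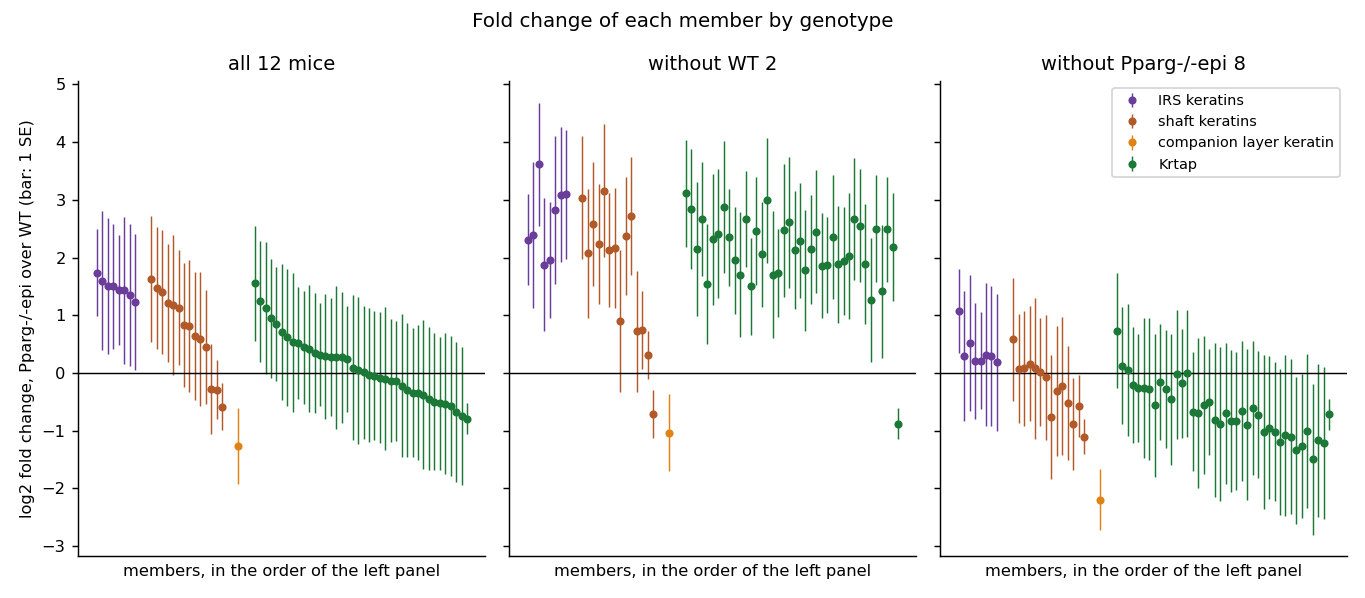
Log2 fold change of each gene, Pparg-/-epi over WT, with bars of 1 standard error, grouped by class: with all 12 mice (left), without WT 2 (middle) and without Pparg-/-epi 8 (right). The median over the 63 genes is 0.32, 2.18 and -0.52 in the 3 panels.

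The direction of most of these genes turned on 1 mouse, with 60 of 63 above 0 without WT 2 and 17 without Pparg-/-epi 8. Without WT 2 the median log2 fold change was 2.18 over the 63 genes, 2.61 for IRS keratins, 2.15 for shaft keratins and 2.17 for Krtap genes, and 4 genes were altered, where 15.5% of all genes were. Krt72 (log2 fold change 3.61, adjusted p = 0.0301), Krtap13-1 (3.11, adjusted p = 0.0318) and Krtap1-4 (2.66, adjusted p = 0.0369) were higher and Krtap3-2 was lower. Without Pparg-/-epi 8 the medians were -0.52, 0.29, -0.15 and -0.70, and 2 genes were altered, Krt32 and Krt75, both lower, where 8.39% of all genes were altered. Leaving out both mice, a choice made after seeing the values, gave medians of 1.36, 1.69, 1.11 and 1.47 and the same 2 altered genes, where 12.8% of all genes were. Leaving out WT 1 and WT 4 instead, also chosen later, gave -0.29, 0.89, 0.22 and -0.57 and 0 altered genes, 1 at an unadjusted p under 0.05, where 7.35% of all genes were altered.

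The IRS keratins had a fold change above 0 in every one of the 26 fits run, wherever they were tested, but the values ranged from 0.06 to 3.61 and the only call among them was Krt72 without WT 2. With RIN as a covariate their median was 0.85, and with age as the study's supplement lists it 0.42, against 1.45 with the age in the labels. Genotype by sex interaction was past an adjusted p of 0.05 for 0 genes of the whole table in the quasi-likelihood test and 5.1% had an unadjusted p under 0.05, none of the 63 genes among them. No other tool was run for the interaction. The IRS median was 1.17 among the 7 female and 1.12 among the 5 male mice, whereas that of the Krtap genes was -0.41 and 1.28.

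Set apart here were 4 genes, and they were picked out after their values were seen. Across libraries the highest level exceeded the lowest 4.24- to 16.5-fold for Krtap3-2, Krt32, Krt84 and Krt75, and from 16.9-fold upward for the other 59 genes with values under 3 counts set to 3 counts. All 4 were present in WT 1 and WT 4. So was Krt28, with 30 counts in WT 1 and 10 in WT 4, but its highest level exceeded its lowest 237-fold. Krt39, the gene at 16.9-fold, had 8 counts in WT 1 and 9 in WT 4 and was lowest in WT 3, with 2 counts. The line between the 4 and the other genes is therefore not sharp.

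Krtap3-2 was at 46.2, 32.7, 56.5, 32.9, 46.9 and 43.5 CPM in WT mice and at 13.3, 16.5, 16.5, 32.3, 35.4 and 35.8 CPM in Pparg-/-epi mice. In WT 1 it had 723 counts, while Krtap3-1 had 3 and Krtap3-3 had 4, its neighbours on either side. Krtap3-2 and Krtap3-3 share 27.1% and 39.1% of their 75-base stretches with family members, and reads that mapped to several places were removed before counting. Of the Pparg-/-epi libraries, 7, 8 and 9 lay at 16.5 CPM or less, 10 lay just under the lowest WT library, and 11 and 12 lay within the WT range. The log2 fold change was -0.79 (standard error 0.26, adjusted p = 0.0609), and it was altered in 7 of the other fits, by the likelihood ratio test (adjusted p = 0.0316) and DESeq2 (adjusted p = 0.0211), with total counts (9.59% of all genes altered), with sex as a covariate (10.0%), and without WT 2, Pparg-/-epi 11 or Pparg-/-epi 12.

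Krt75 is the type II keratin of the companion layer. It was at 32.9, 71.5, 19.5, 19.8, 68.0 and 33.8 CPM in WT mice and at 22.6, 56.9, 4.42, 4.32, 7.60 and 5.84 CPM in Pparg-/-epi mice. In 4 of 6 Pparg-/-epi libraries it was below the lowest WT library, and the remaining 2, 7 and 8, were the ones richest in IRS keratin. Its log2 fold change was -1.26 with a standard error of 0.65 (adjusted p = 0.220) and -2.20 with a standard error of 0.53 (adjusted p = 0.0201) without Pparg-/-epi 8.

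Krt32, a type I keratin of the shaft cuticle, was at 13.7, 10.3, 24.6, 17.8, 19.9 and 15.1 CPM in WT and at 7.28, 27.6, 3.39, 6.65, 11.2 and 11.3 CPM in Pparg-/-epi mice. In Pparg-/-epi mice 5 libraries lay at 11.3 CPM or less, WT 2 lay among them at 10.3 CPM, and Pparg-/-epi 8 was the highest of all. Leaving Pparg-/-epi 8 out moved the log2 fold change from -0.58 (adjusted p = 0.373, standard error 0.41) to -1.10 (adjusted p = 0.0359, standard error 0.31). Of the exon bases of Krt32, 12.0% lie in exons of Gm11571 on the opposite strand, and whether reads were counted by strand is not given in the sources used here. Krt84, a type II hair keratin that is also made in tongue papillae, was at 1.01 to 7.27 CPM (median 1.87) in WT and 0.995 to 4.00 CPM (median 1.85) in Pparg-/-epi mice, and its log2 fold change of -0.29 had a standard error of 0.51 (adjusted p = 0.756).

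**Figure D5:**
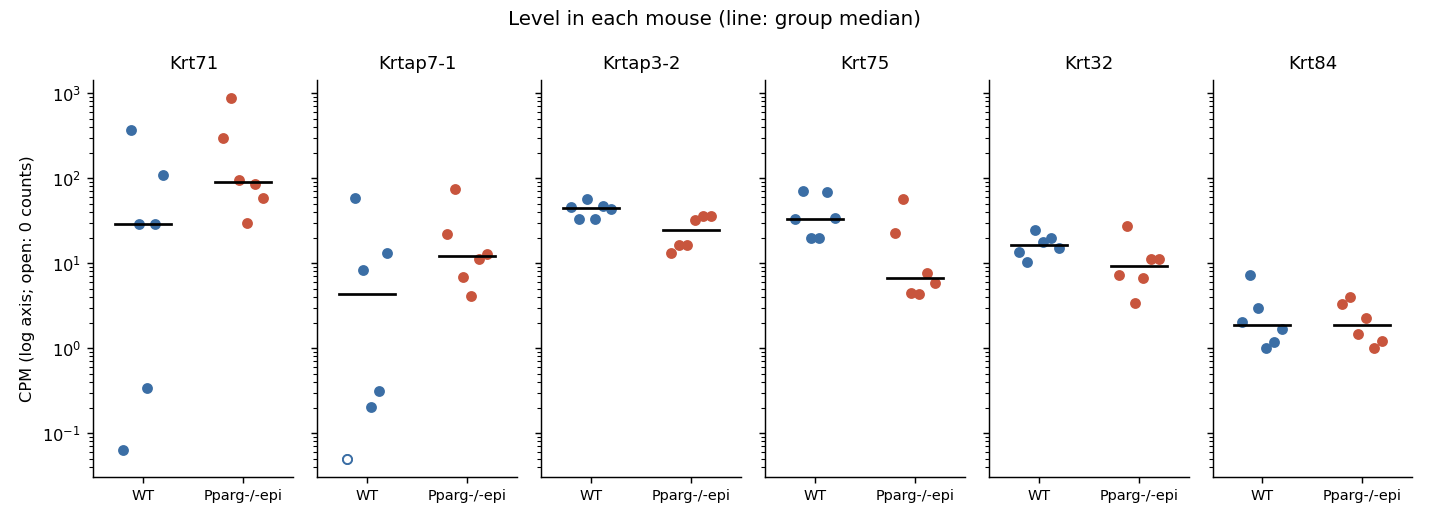
CPM (log axis) of 6 genes in each mouse, WT at left and Pparg-/-epi at right of each panel, with a line at the group median; open points had 0 counts and are drawn at 0.05 CPM. Krt71 and Krtap7-1 spread over several powers of 10 in WT mice, while Krtap3-2, Krt75, Krt32 and Krt84 stay within 4.24- to 16.5-fold.

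The libraries at the extremes were the same for the sum of other structural genes of the growing follicle. Of 13 further structural genes of the IRS and shaft, 12 were listed, and they summed to 2533, 1582 and 1135 CPM for Pparg-/-epi 8, WT 2 and Pparg-/-epi 7 against 77.0 and 72.8 CPM for WT 1 and WT 4. Tchh, which encodes trichohyalin of the IRS and medulla, had a median of 44.1 CPM in WT mice, with 1200 CPM in WT 2, and ran from 68.2 to 2046 CPM in Pparg-/-epi mice. This gene alone made up most of the sum in WT 2 and in Pparg-/-epi 8. Of these 12, 1 was altered, where 10.3% of all genes were, so the count says little about the list. Tgm3, a transglutaminase that the interfollicular epidermis also makes, rose from a median of 16.5 CPM in WT to 62.0 CPM in Pparg-/-epi mice (adjusted p = 6.21e-04, log2 fold change 1.78, standard error 0.24). Its groups did not overlap, as was so for 7.9% of all genes. It was highest in Pparg-/-epi 10.

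Of 13 transcription factors, Vdr and Runx1 were higher (log2 fold change 1.01 and 1.86, adjusted p = 0.0120 and 0.0109) and Gata3, which specifies the IRS, was lower (-0.98, adjusted p = 0.0238). The sum of the 13 had other extremes than the hair keratins. It was lowest in WT 2 (1193 CPM), highest in WT 3 (1861 CPM) and 1312 CPM in Pparg-/-epi 8. Hoxc13, which drives hair keratin genes, ran from 2.15 to 24.5 CPM in WT and from 4.08 to 36.6 CPM in Pparg-/-epi mice (log2 fold change 0.63, standard error 0.65, adjusted p = 0.568). Of 9 listed matrix signals, Bmp4 and Bmp2 were lower (-1.12 and -0.68, adjusted p = 0.00520 and 0.0446). The share altered over all genes was 10.3%. Shh, made by matrix cells of the growing bulb, was at 2.90 CPM or less in WT and 3.40 CPM or less in Pparg-/-epi mice.

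Of 7 listed melanocyte genes, which are active in the pigmenting anagen bulb, 1 was altered, where 10.3% of all genes were. Kit was this gene, and it rose from a median of 4.20 to 23.7 CPM (log2 fold change 2.30, adjusted p = 0.00106). A single altered gene says little about the list. Dct, an enzyme of melanin synthesis, ran from 1.92 to 17.6 CPM in WT and from 5.06 to 82.9 CPM in Pparg-/-epi mice and was highest in Pparg-/-epi 8 (adjusted p = 0.194). Of 11 genes of the resting follicle and bulge, 3 were lower. They were Krt15, a bulge and basal keratin (-1.74, adjusted p = 0.00106), Krt24 (-2.45, adjusted p = 0.00154) and Fgf18, a signal that holds follicles at rest (-3.96, adjusted p = 8.94e-04). These 3 did not overlap between groups, as was so for 7.9% of all genes. Fgf18 was at 3.52 to 37.4 CPM in WT, and at 0.303 to 1.20 CPM in Pparg-/-epi mice. In WT 2, rich in hair keratin, it was at 10.3 CPM.

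Of 10 proliferation genes 7 were higher, Mki67 among them (1.46, adjusted p = 0.00717), where 10.3% of all genes were altered in either direction. Within WT the list summed to 404 CPM in WT 2, the library richest in hair keratin, and to 430 CPM in WT 1, the lowest in IRS keratin. Of 9 listed sebocyte genes 7 were lower, with the sum at 552 to 2917 CPM in WT and 211 to 326 CPM in Pparg-/-epi mice. The sum was 285 CPM in Pparg-/-epi 7 and 301 CPM in Pparg-/-epi 8, the libraries of their group richest in hair keratin. It was 2917 CPM in WT 2. The relation of this sum to hair keratin was not tested.

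Other tissue in the scrapings moved with some of the extremes. The sum of 5 interfollicular keratins was lowest in WT 2 (13023 CPM) and Pparg-/-epi 8 (24684 CPM) and between 26665 and 45317 CPM in the other libraries, and of these genes only Krt14 was altered (log2 fold change 0.98, adjusted p = 0.00559). Dermal fibroblast genes, 8 listed and 0 altered, summed to 34762 CPM in WT 1 and to 1030 CPM in WT 6. The IRS sums of these 2 libraries were 2.24 and 358 CPM. Skeletal muscle genes, 8 listed and 0 altered, summed to 10394 CPM in WT 5 and to 423 CPM or less elsewhere. Adipocyte genes, 8 listed and 0 altered, were highest in WT 2 (435 CPM) and Pparg-/-epi 8 (269 CPM) and lowest in WT 3 (15.7 CPM). Of 6 endothelial genes Emcn was higher (1.79, adjusted p = 0.0340), and of 6 immune cell genes Cd3e was lower (-0.75, adjusted p = 0.0325). Beside these single genes, 10.3% of all genes were altered. The part of these cell types in the hair keratin levels was not tested.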

How the data were processed

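RNA of scraped epidermis was sequenced, with an mRNA library kit, from 6 WT and 6 Pparg-/-epi mice. The authors deposited raw counts per gene, made by aligning reads with STAR 2.5.2b to mm10, removing low-quality and multi-mapped reads and counting with featureCounts (Subread 1.5.1). Every gene in the table was above 0.5 CPM in at least 6 mice. Blank rows (2800) were dropped, leaving 14533 genes. Total counts ran from 10120840 to 18851255 per library. Removal of multi-mapped reads can lower counts of near-identical Krtap and hair keratin genes.

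Genotypes were compared with edgeR 4.0.16 in R 4.3.3, with TMM factors, genotype as the only term and the quasi-likelihood test, and p-values were adjusted by Benjamini-Hochberg over all genes. Altered genes were those with a log2 fold change beyond 0.6 in either direction together with an adjusted p below 0.05. CPM were computed on TMM-scaled library sizes, and CPM per kb with the gene length in the table. The test was checked on simulated counts. Alternatives were other size factors, the likelihood ratio test, DESeq2 1.42.0, a minimum of 10 counts in every mouse, each mouse left out, covariates and each sex alone. The age from the study's supplement was used as a covariate only. Leaving out the 2 highest or the 2 lowest libraries, and setting Krt32 and Krt84 apart, were chosen after seeing the data.

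The genes and lists were chosen with earlier results of these data known. Named were all listed keratins, the 3 most abundant Krtap genes of each class and the 5 altered Krtap genes with the largest change in each direction, or those with the lowest p where fewer were altered. The classes were to follow protein composition, and chromosome clusters were used instead because protein sequences were not used here. Of the other lists, altered genes and the 2 most abundant were to be named, but only some of them are given. Of the altered proliferation genes only Mki67 is named, and of the altered sebocyte genes none is. Hoxc13, Shh, Krtap19-5, Krtap3-3 and Krtap1-4 were added after their values were seen. Promoters came from RefSeq (GRCm38.p6).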

Additional observations from a re-analysis of the deposited data

Results flagged for a closer look

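Levels of 18 measures, 15 genes and 3 class sums, were examined in each group of 6 mice for a library far from the others, by the gap to its nearest neighbour as a share of the group's range (above Dixon's 95% critical value for 6 samples). Of the 36 groups, 24 held such a library, 15 times Pparg-/-epi 8 and 9 times WT 2, each time as the highest. Chance marks about 1 in 20 groups only where levels are normally distributed, and these were skewed to high values. On the scale of log10(CPM + 0.1), chosen after seeing the data, 0 of the 36 groups held such a library. A gap to the nearest neighbour cannot mark 2 libraries that lie close together. WT 1 and WT 4 were such a pair for the IRS sum, at 2.24 and 2.69 CPM, and the next library, WT 3, was at 86.1 CPM. The 18 measures are not independent, since the same libraries enter all of them.

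In Pparg-/-epi 8 the gap was 0.726 of the range for the IRS sum, 0.769 for the shaft sum and 0.698 for the Krtap sum. Among IRS keratins it was 0.686 for Krt71, 0.792 for Krt25, 0.673 for Krt27, 0.803 for Krt73 and 0.734 for Krt74. Among the other keratins it was 0.833 for Krt35, 0.805 for Krt31, 0.735 for Krt83, 0.672 for Krt32 and 0.652 for Krt75. For the Krtap genes it was 0.744 for Krtap7-1 and 0.748 for Krtap19-5.

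In WT 2 the gap was 0.629 of the range for the shaft sum and 0.862 for the Krtap sum. It was 0.702 for Krt71, 0.802 for Krt27, 0.735 for Krt83 and 0.685 for Krt84. For Krtap3-1, Krtap7-1 and Krtap19-5 it was 0.884, 0.776 and 0.869. No library of either group stood apart in this way for Krtap3-2.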

How the results depend on the processing

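Of the 63 genes, 0 were altered with all 12 mice in the quasi-likelihood test, 1 with total counts, 1 with the likelihood ratio test, 1 with DESeq2, 1 with sex as a covariate and 2 without both highest libraries, and the count ran from 0 to 4 with each mouse left out. For the Krtap genes the counts were 1 with total counts, with the likelihood ratio test, with DESeq2 and with sex as a covariate, and 0 to 3 with each mouse left out. For the shaft keratins they were 1 without both highest libraries and 0 to 1 with each mouse left out, and for the IRS keratins 0 to 1. With at least 10 counts in every mouse 5 of the 63 genes could be tested. With each WT mouse left out the WT median ran from 86.1 to 101 CPM for the IRS sum and from 58.6 to 136 CPM for the sum of the 40 Krtap genes, and without Krtap3-2, chosen after seeing the data, from 11.7 to 92.9 CPM, where leaving out WT 2, WT 3 or WT 6 gave the lowest value. Of 41 genes named by rule, 20 never changed sign.

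Over all 63 genes, the log2 fold change was seen with both signs for 43 (36 Krtap genes and 7 shaft keratins) when each mouse was left out in turn. Of these, 21 were among the genes named by rule, and their ranges follow. For shaft keratins the range was -0.071 to 2.17 for Krt33b, -0.31 to 2.37 for Krt34, -0.76 to 1.66 for Krt35, -0.52 to 0.82 for Krt36, -0.89 to 0.74 for Krt39, -0.57 to 0.31 for Krt84 and -0.22 to 2.73 for Krt86. For Krtap genes it was -0.89 to 2.45 for Krtap1-5, -0.67 to 2.06 for Krtap10-10, -0.18 to 1.50 for Krtap10-4, -0.70 to 2.99 for Krtap15, -0.21 to 2.67 for Krtap17-1, -1.26 to 1.26 for Krtap19-2, -1.49 to 1.41 for Krtap19-4, -0.26 to 1.54 for Krtap24-1, -0.72 to 1.87 for Krtap3-1, -1.21 to 2.18 for Krtap4-6, -0.27 to 1.95 for Krtap5-5, -0.26 to 2.31 for Krtap7-1, -0.27 to 2.42 for Krtap8-1 and -1.17 to 2.49 for Krtap9-1.

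The sign turned among male mice alone for 20 of the 63 genes, among female mice alone for 11, with RIN for 5, with sex for 7, with age in the labels for 16 and with age in the supplement for 10. Of the genes named by rule it turned among male mice for Krt35 (-0.66), Krt36 (-0.13), Krt39 (0.80), Krtap1-5 (1.39), Krtap19-2 (0.74), Krtap3-1 (0.83), Krtap4-6 (3.10) and Krtap9-1 (2.91), and among female mice for Krtap10-10 (-0.15), Krtap10-4 (-0.063), Krtap15 (-0.19) and Krtap5-5 (-0.047). With RIN as a covariate it turned for Krt36 (-0.12), Krtap1-5 (0.10) and Krtap10-4 (-0.017), with sex for Krtap1-5 (0.15), with age in the labels for Krtap1-5 (0.78), Krtap3-1 (0.43), Krtap4-6 (0.45) and Krtap9-1 (0.64), and with age in the supplement for Krt35 (-0.67), Krt36 (-0.10) and Krtap10-10 (-0.14). The cause was not tested. No paired analysis was possible because the groups share no replicate number and only 1 number in the column names.

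Where WT 1 held 35 counts of IRS keratin and 12 of 39 Krtap genes, proportions between genes could not be estimated.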
